A study of Homo sapiens with 12 samples.

Results

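The genes followed here were 9 known targets of peroxisome proliferator-activated receptors (PPARs) that serve the uptake, transport and oxidation of fatty acids: CD36, FABP4, CPT1A, SLC25A20, ACADVL, HADHA, PDK4, ANGPTL4 and CREB3L3. They were taken by name from a table of 36866 genes. The list was selected on function with the values of all 4 groups already known, so the differences of the 9 genes between treatments and between lines are given as a description. No p-value is given for a member, and the counts of members that pass a criterion stand beside the share of all genes that do, with nothing read from them.

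To explore the response of acute myeloid leukemia (AML) cells to honokiol, a small molecule from magnolia bark, poly(A) mRNA of the AML cell lines THP-1 and U-937 was sequenced. Cells received honokiol or the solvent control, 0.1% DMSO, for 24 h, with 3 libraries in each of the 4 groups. The labels list honokiol at 20 and 35 µM without saying which line received which, so dose and line cannot be told apart. Both lines are labelled as having a complex karyotype, each name stands for 1 cell line, and the labels do not say whether the 3 libraries of a group came from separate cultures. Where a p-value is given, it measures the spread between these libraries only.

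The estimated counts of a library summed to between 57406966 and 75065752, and the libraries of a group correlated with r between 0.949 and 0.979 across 12304 genes. The share of mitochondrially encoded genes stood apart in the first DMSO replicate of each line, at 13.7% (THP-1) and 12.6% (U-937), where the remaining libraries had 5.61% to 7.55%. All 11 monocytic markers had a mean of at least 1 FPKM (fragments scaled to transcript length and library size) in both THP-1 groups, and 9 or 10 of the 11 did in U-937, where MPO was at 0.0833 and 0.1. FABP4 and CREB3L3 are best known from fat cells and liver, but 0 of the 4 adipocyte markers in the table (of 5 listed) and 0 of the 5 hepatocyte markers reached 1 FPKM in any group. The adipocyte markers summed to 0 to 0.32 FPKM per library and the hepatocyte markers to 0 to 0.38, with ALB at DMSO means of 0.26 (THP-1) and 0.17 (U-937).

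PPARs are nuclear receptors that bind fatty acids and their derivatives, pair with a retinoid X receptor and switch on genes at paired hexamer sites in DNA. Their targets carry a fatty acid from the cell surface to the mitochondrion: a scavenger receptor takes it up, binding proteins hold it in the cytosol, the carnitine shuttle moves it across the mitochondrial membranes, and a set of enzymes shortens it step by step. In macrophages, the relatives of these leukemic monocytic cells, this program is best known from lipid-loaded cells.

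FABP4, CREB3L3 and SLC25A20 had higher FPKM in every honokiol library than in every DMSO library of the same line, in both lines. PDK4 and ANGPTL4 did so in THP-1, where they were measurable, and stayed below the limit for testing in U-937. CPT1A and ACADVL were also separated in both lines, with smaller differences, and HADHA was separated in U-937 and overlapped in THP-1. Of all genes tested, 13.0% were separated upwards in this way in THP-1 and 16.7% in U-937, and the share separated in both lines was not computed. CD36 overlapped between the treatments in both lines and was higher in every U-937 library than in every THP-1 library. The share of all genes separated between the lines was not computed.

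**Figure D1:**
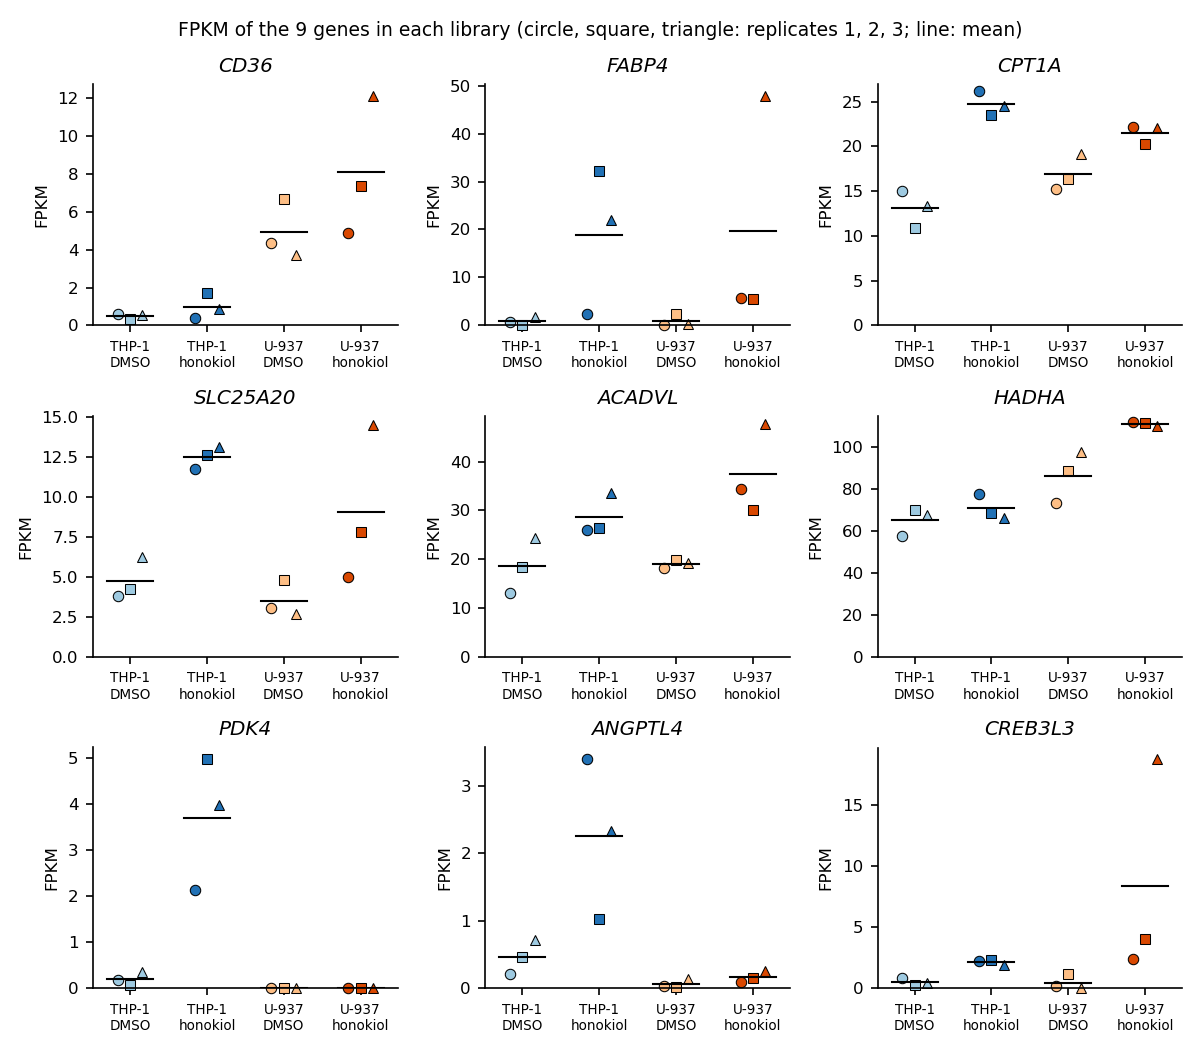
FPKM (vertical axes, from 0, each with its own scale) of the 9 genes in each of the 12 libraries, with circles, squares and triangles for replicates 1, 2 and 3 and a line for the mean of each group of 3. FABP4 lay at 0 to 2.30 in the 6 DMSO libraries and at 2.39 to 47.9 in the 6 honokiol libraries, and PDK4 was at 0 in the U-937 libraries apart from 0.01 in honokiol replicate 1.

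CD36 and FABP4 serve the uptake of fatty acids and their transport within the cell. CD36 (ENSG00000135218, chromosome 7, 80369575 to 80679274 on GRCh38) is the surface receptor for long-chain fatty acids and oxidized lipoproteins. In THP-1 it was at 0.62, 0.35 and 0.53 FPKM in DMSO replicates 1 to 3 and at 0.38, 1.69 and 0.87 with honokiol. The honokiol range enclosed most of the DMSO range, and the log2 fold change of 0.89 ± 0.50 (SE) went down to 0.24 without honokiol replicate 2. U-937 cells had 4.37, 6.68 and 3.71 FPKM with DMSO and 4.87, 7.37 and 12.2 with honokiol, again overlapping, with a log2 fold change of 0.64 ± 0.35 that was 0.21 without honokiol replicate 3. The order of the group means was U-937 honokiol (8.13), U-937 DMSO (4.92), THP-1 honokiol (0.98) and THP-1 DMSO (0.5), and only the step between the lines was free of overlap.

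FABP4 (ENSG00000170323, on chromosome 8) is the fatty acid binding protein of adipocytes and macrophages. With DMSO it was at 0.75, 0.07 and 1.67 FPKM in THP-1 and at 0, 2.30 and 0.18 in U-937. With honokiol it was at 2.39, 32.1 and 22.0 in THP-1 and at 5.69, 5.44 and 47.9 in U-937. All 6 honokiol libraries were above all DMSO libraries, but the libraries of 1 treatment differed widely, with THP-1 honokiol replicate 1 far below its 2 partners and U-937 honokiol replicate 3 far above its own. The honokiol mean was 22.7 times the DMSO mean in THP-1, with a log2 fold change of 4.43 ± 1.13. It was 23.8 times the DMSO mean in U-937, with a log2 fold change of 4.49 ± 1.5. Single libraries moved both values: the THP-1 one was 3.80 without honokiol replicate 2 and 5.35 without DMSO replicate 3, and the U-937 one was 2.66 without honokiol replicate 3 and 7.56 without DMSO replicate 2. The estimated counts behind the DMSO values were 77, 8 and 166 in THP-1 and 0, 263 and 20 in U-937. In bulk RNA a larger share of cells with FABP4 and more FABP4 RNA per cell cannot be told apart, which holds for every value here.

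CPT1A and SLC25A20 belong to the carnitine shuttle. CPT1A (ENSG00000110090, chromosome 11, 68754620 to 68841931) joins long-chain fatty acids to carnitine at the outer mitochondrial membrane, the rate-limiting step of their oxidation. THP-1 cells had 15.1, 10.8 and 13.3 FPKM of CPT1A with DMSO and 26.2, 23.5 and 24.5 with honokiol. The 3 honokiol libraries were close together and well above the DMSO libraries, with a log2 fold change of 0.86 ± 0.17. In U-937 the levels were 15.2, 16.4 and 19.1 with DMSO and 22.2, 20.3 and 22.1 with honokiol, separated by little, with a log2 fold change of 0.26 ± 0.12. Group means fell in the order THP-1 honokiol (24.7), U-937 honokiol (21.5), U-937 DMSO (16.9) and THP-1 DMSO (13.1), without overlap at any step. The step between the DMSO groups was narrow, with 15.2 FPKM in the lowest U-937 library and 15.1 in the highest THP-1 library. Its log2 difference of 0.31 ± 0.19 was 0.096 without THP-1 DMSO replicate 2. CPT1A was not called for the difference between the honokiol responses of the lines.

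SLC25A20 (ENSG00000178537, chromosome 3, 48856926 to 48898904) is the carrier that swaps acylcarnitine for carnitine across the inner membrane. Its FPKM in THP-1 was 3.79, 4.25 and 6.24 with DMSO and 11.8, 12.7 and 13.1 with honokiol. The 3 honokiol libraries lay within a narrow band, and the log2 fold change was 1.35 ± 0.20. In U-937 it was at 3.08, 4.79 and 2.70 with DMSO and at 4.96, 7.82 and 14.5 with honokiol. The lowest honokiol library was just above the highest DMSO library there, and the log2 fold change of 1.28 ± 0.41 was 0.76 without honokiol replicate 3. Both honokiol groups overlapped each other (means of 12.5 and 9.08), as did both DMSO groups (4.76 and 3.52).

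ACADVL and HADHA are enzymes of mitochondrial β-oxidation itself. ACADVL (ENSG00000072778, chromosome 17, 7217125 to 7225266), the very long-chain acyl-CoA dehydrogenase, carries out the first oxidation of each cycle. It was at 13.1, 18.4 and 24.3 FPKM with DMSO in THP-1 and at 25.9, 26.4 and 33.6 with honokiol. In U-937 it was at 18.2, 19.8 and 19.2 with DMSO and at 34.4, 30.1 and 47.6 with honokiol. The gap between treatments was wide in U-937 and narrow in THP-1, where DMSO replicate 3 came close to the honokiol libraries, and the log2 fold changes were 0.88 ± 0.19 and 0.58 ± 0.20. The DMSO groups of both lines overlapped (means of 19.1 and 18.6), and so did the honokiol groups (37.4 and 28.6).

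HADHA (ENSG00000084754, chromosome 2, 26190635 to 26244632), the α subunit of the trifunctional protein that carries out the last steps of each cycle, was the most abundant of the 9 genes in every group. In THP-1 its FPKM was 57.6, 70.2 and 67.8 with DMSO and 77.8, 68.6 and 66.3 with honokiol, and the treatments overlapped, with a log2 fold change of 0.07 ± 0.13. U-937 cells had 73.2, 88.5 and 97.8 with DMSO and 112.2, 111.8 and 110.1 with honokiol, separated, with a log2 fold change of 0.28 ± 0.13. The means were 111, 86.5, 70.9 and 65.2 FPKM in U-937 honokiol, U-937 DMSO, THP-1 honokiol and THP-1 DMSO, where only the first step was free of overlap. HADHB, which encodes the β subunit, lies on the opposite strand and overlaps HADHA in the GENCODE annotation, and its mean FPKM was 24.5 and 25.9 in THP-1 and 26.2 and 39.8 in U-937, DMSO before honokiol. Since it is not stated whether strand was used in counting, reads in the shared stretch cannot be assigned to either gene. The same limit applies to ACADVL with DLG4 and MIR324, to ANGPTL4 with RAB11B-AS1 and to CD36 with AC073850.1. AC073850.1 was at means of 0.0467 and 0.107 FPKM in THP-1 and 0.563 and 0.61 in U-937, DMSO before honokiol. CD36 also overlaps AC004862.1, SNRPBP1 and GNAT3, and FABP4 overlaps AC018616.1, none of which had a value.

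PDK4 (ENSG00000004799, chromosome 7, 95583499 to 95596516), a kinase that shuts off pyruvate dehydrogenase and so turns a cell from glucose towards fat, was found in THP-1 and hardly at all in U-937. THP-1 cells had 0.17, 0.07 and 0.36 FPKM with DMSO and 2.14, 4.97 and 3.97 with honokiol. Every honokiol library was far above every DMSO library, with means of 3.69 and 0.2, an 18.5-fold ratio and a log2 fold change of 4.14 ± 0.59, which was 4.79 without DMSO replicate 3 and 2.54 with limma-trend on log2(FPKM + 0.5). In U-937 it was listed at 0 in all 3 DMSO libraries and at 0.01, 0 and 0 with honokiol, where the single value above 0 was an estimated count of 5. PDK4 entered the THP-1 fit through its honokiol libraries alone, since 0 of 3 DMSO libraries reached the limit of 0.5 FPKM.

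ANGPTL4 (ENSG00000167772, chromosome 19, 8363289 to 8374370) is a secreted inhibitor of lipoprotein lipase. It was at 0.21, 0.47 and 0.72 FPKM in THP-1 with DMSO and at 3.40, 1.02 and 2.33 with honokiol, a log2 fold change of 2.22 ± 0.54. The honokiol libraries were separated from the DMSO libraries, replicate 2 by the smallest margin. In U-937 it stayed at 0.04, 0.02 and 0.14 with DMSO and 0.09, 0.16 and 0.25 with honokiol, overlapping and below the limit for testing. Of the 4 group means (2.25, 0.467, 0.167 and 0.0667, in THP-1 honokiol, THP-1 DMSO, U-937 honokiol and U-937 DMSO) only the first was clear of its neighbour. The overlapping antisense transcript RAB11B-AS1 had means of 1.81 and 1.72 FPKM in THP-1 and 2.14 and 2.51 in U-937, DMSO before honokiol. It was above the mean of ANGPTL4 itself in THP-1 with DMSO (0.467) and in both U-937 groups. In THP-1 with honokiol it was below the ANGPTL4 mean of 2.25.

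CREB3L3 (ENSG00000060566, chromosome 19, 4153631 to 4173054) encodes a membrane-bound transcription factor that in liver works together with PPARα on genes of fasting. With DMSO it was at 0.86, 0.30 and 0.40 FPKM in THP-1 and at 0.17, 1.16 and 0 in U-937. With honokiol it was at 2.22, 2.30 and 1.92 in THP-1 and at 2.40, 4.05 and 18.8 in U-937. The THP-1 honokiol libraries nearly coincided and lay above all DMSO libraries, whereas 1 library, U-937 honokiol replicate 3, stood far above the other two of its group. The log2 fold change was 1.94 ± 0.43 in THP-1, and 2.58 without DMSO replicate 1. It was 4.15 ± 1.39 in U-937, where it was 2.75 without honokiol replicate 3 and 6.51 without DMSO replicate 2. The honokiol groups did not overlap each other (means of 8.4 and 2.15) and the DMSO groups did (0.52 and 0.443).

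CREB3L3 also held the closest match to a PPAR site among the promoters of 8 members. The promoter of FABP4 was not searched. RefSeq start sites on GRCh38.p14 gave 14 windows of 250 bases upstream for 8 of the 9 genes, 6 of them for CD36 and 2 for ACADVL. These were searched on both strands for the hexamer AGGTCA and for 2 such hexamers in the same orientation with 1 base between them, counting mismatches over the 12 bases of both. The pair matched with 1 mismatch in CREB3L3, on the plus strand at −222 to −210 from the start (the base before the start being −1). Over 34943 such windows of all genes, 0.289% held a pair with at most 1 mismatch, and 0.0172% held a perfect pair. The exact hexamer stood in the CREB3L3 window alone among the 14, as the downstream hexamer of that pair, and in 12.1% of all windows. A second member window, that of a CD36 start, had a pair with 2 mismatches, which 2.57% of all windows held. The windows of CREB3L3 (chr19:4153381-4153630, plus strand) and, as a gene separated in both lines without a near match, SLC25A20 (chr3:48898883-48899132, minus strand) are given here from 5′ to 3′, with the best pair in capitals:
CREB3L3: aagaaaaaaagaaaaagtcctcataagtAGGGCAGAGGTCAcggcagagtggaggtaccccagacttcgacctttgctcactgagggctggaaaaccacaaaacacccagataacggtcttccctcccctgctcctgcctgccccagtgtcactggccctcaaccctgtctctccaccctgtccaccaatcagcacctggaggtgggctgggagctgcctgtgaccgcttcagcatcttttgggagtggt
SLC25A20: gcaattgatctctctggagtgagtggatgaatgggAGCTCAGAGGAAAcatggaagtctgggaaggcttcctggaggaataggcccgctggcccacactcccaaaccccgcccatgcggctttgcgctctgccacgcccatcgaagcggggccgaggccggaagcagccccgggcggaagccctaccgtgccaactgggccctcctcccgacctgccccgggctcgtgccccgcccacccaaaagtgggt
The best pair of SLC25A20, on the strand shown at −215 to −203 from the start, had 3 mismatches, which 18.0% of all windows reached, so its capitals mark an ordinary match. A match of letters describes these windows only, and binding was not measured.

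**Figure D2:**
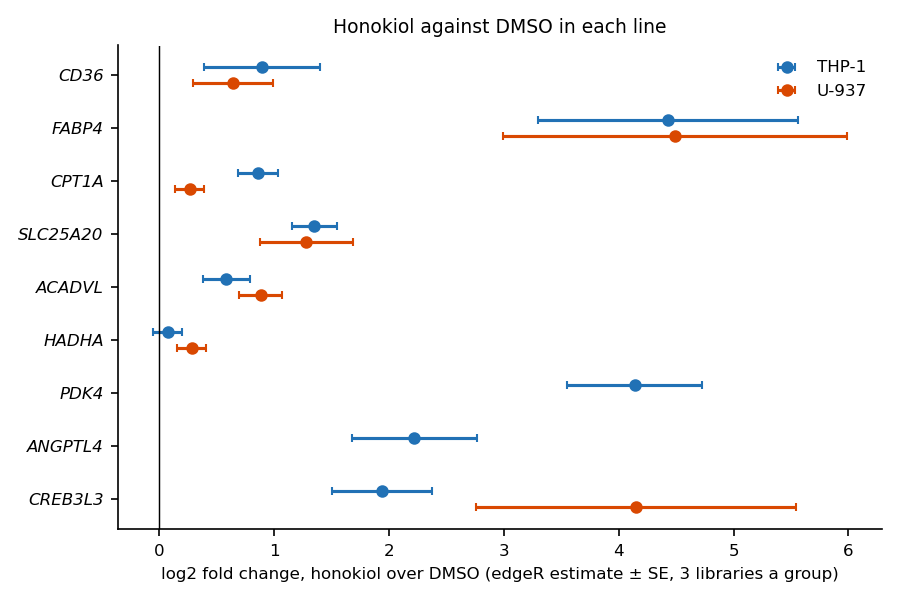
Log2 fold change of honokiol over DMSO (horizontal axis) in THP-1 (blue) and U-937 (orange) for the 9 genes, as the edgeR estimate with its standard error from 3 libraries a group. FABP4 was estimated at 4.43 and 4.49, HADHA at 0.07 and 0.28, and PDK4 and ANGPTL4 have no U-937 value because they were below the FPKM limit.

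A differentially expressed gene (DEG) had to differ by over 1 on the log2 scale at an adjusted p under 0.05 in edgeR's quasi-likelihood test over all genes with at least 0.5 FPKM in 3 libraries of the comparison. In THP-1 9 of the 9 members were tested and 0 were DEGs, where 0.0411% of all genes were (6 of 14600). In U-937 7 were tested and 0 were DEGs, against 0.0947% of all genes (13 of 13726). For the difference between the honokiol responses of the lines, 0 of 9 were called, against 0.111% of all genes. With the p left unadjusted and the same fold limit, FABP4, ANGPTL4, SLC25A20, PDK4 and CREB3L3 were higher with honokiol in THP-1, 5 of 9 where 1.73% of all genes were. FABP4, SLC25A20 and CREB3L3 were so in U-937, 3 of 7 where 1.76% of all genes were. No member was lower by that criterion (0 of 9 and 0 of 7), against 1.07% of all genes (THP-1) and 0.772% (U-937), and 0 of 9 passed it for the difference of responses, against 4.29%. Since the members were chosen with these contrasts known, nothing is read from these shares.

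The tools disagreed on these calls. DESeq2 called the same 5 members in THP-1 (1.71% of all genes), SLC25A20 alone in U-937 (1.62%) and 0 of 9 for the difference of the responses (1.11%). Limma-trend on log2(FPKM + 0.5) called 0 members in each of the 3, where it called 0.00%, 0.117% and 0.0123% of all genes. By library values alone, 7 of 9 members were above every DMSO library in all honokiol libraries of THP-1, as were 13.0% of all genes, and 6 of 7 in U-937, as were 16.7%.

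Single libraries carried part of the picture. U-937 honokiol replicate 3 was the highest of its group for 6 of the 9 genes, against 29.7% of all genes. Without it 0 members passed the unadjusted criterion in U-937, although the log2 fold changes of FABP4 (2.66), CREB3L3 (2.75), SLC25A20 (0.76) and ACADVL (0.66) stayed above 0. U-937 DMSO replicate 2 was the highest of its group for 5 of the 8 genes above 0 there, against 32.8% of all genes. In THP-1 DMSO replicate 2 was the lowest of its group for 5 of 9 (24.9% of all genes), DMSO replicate 3 the highest for 5 (38.4%) and honokiol replicate 1 the lowest for 5 (39.2%). Between 4 and 6 members passed in THP-1 when any 1 library was left out, 6 of them without DMSO replicate 1, the library with the highest share of mitochondrially encoded genes. Without its counterpart in U-937, DMSO replicate 1, 2 members passed. PDK4 fell under the FPKM limit and was not tested whenever a THP-1 honokiol library was left out, so it could not pass in those fits. CD36 passed in the fit without THP-1 honokiol replicate 1.

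Under DMSO alone the lines stood apart in the level of CD36. Between the DMSO groups edgeR called 32.4% of the 14617 genes tested, and 1 of the 6 members tested, CD36. It was higher in U-937 by 3.22 ± 0.33 on the log2 scale (mean 4.92 against 0.5 FPKM, every U-937 library above every THP-1 library), and by 2.93 to 3.45 with any 1 library left out. HADHA differed by 0.35 ± 0.15 and CPT1A by 0.31 ± 0.19, both with every U-937 library above every THP-1 library. The share of all genes separated in this way between the DMSO groups, in either direction, was not computed. SLC25A20 (−0.48 ± 0.31), ACADVL (0.00 ± 0.20) and FABP4 (−0.08 ± 1.45) overlapped between the lines.

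PDK4, ANGPTL4 and CREB3L3 reached 0.5 FPKM in fewer than 3 of the 6 DMSO libraries and entered only without that limit. Then CD36, PDK4 and ANGPTL4 were called, 3 of 9 members beside 20.0% of 33502 genes. ANGPTL4 differed by −2.75 ± 0.72 on the log2 scale, with every U-937 library below every THP-1 library. For PDK4, whose U-937 DMSO libraries were all at 0, THP-1 was at least 17.3-fold higher in counts summed over the group and scaled to depth. This sets 201 estimated counts against a floor of 12, which is 3 fragments at about 4 counts each. The bound does not cover the spread between the THP-1 DMSO libraries, which had 59, 24 and 118 counts. CREB3L3 differed by −0.27 ± 1.22, with overlap.

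The weight of each member within its gene family differed from gene to gene. CPT1A made up 90.3% ± 3.43 (SD, n = 3) of the FPKM of the 3 CPT1 genes in THP-1 with DMSO and between 90.7% and 92.5% in the other groups, so that it was the main CPT1 throughout. PDK4 made up 2.24% ± 1.44 of the 4 pyruvate dehydrogenase kinases in THP-1 with DMSO and 33.1% ± 13.8 with honokiol (18.2%, 45.3% and 35.7% per library). The main kinase of U-937 was PDK1, at a mean of 23.3 FPKM with DMSO and 26.0 with honokiol, against 4.29 and 3.43 in THP-1. With DMSO PDK1 was higher in U-937 by 2.40 ± 0.22 on the log2 scale (edgeR adjusted p = 6.11e-05).

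FABP4 went from 2.15% ± 2.11 to 24.6% ± 14.7 of the FABP genes in THP-1, DMSO before honokiol. The same share was 0.772% ± 1.16 and 7.54% ± 7.0 in U-937. FABP5, the binding protein of skin and macrophages, stayed the most abundant, at means of 26.5 and 38.2 FPKM in THP-1 and 104 and 190 in U-937. CREB3L3 made up 1.44% and 5.79% of the CREB3 genes in THP-1, DMSO before honokiol, and 1.28% and 14.4% in U-937, where the highest library was at 29.6%. ANGPTL4 made up 16.9% ± 2.68 of the ANGPTL genes in THP-1 with DMSO and 43.5% ± 13.7 with honokiol, beside ANGPTL6 at 1.43 and 2.15 FPKM.

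**Figure D3:**
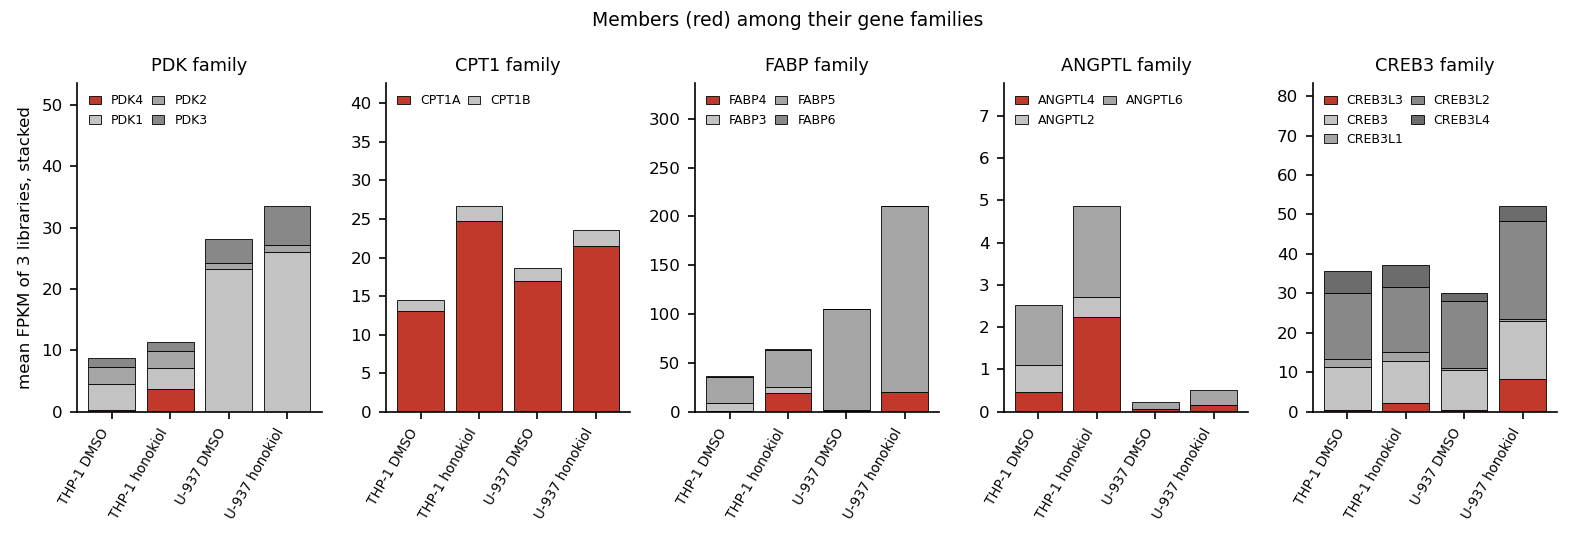
Mean FPKM over 3 libraries (vertical axes, stacked from 0) of the member (red) and its relatives (greys) in 5 gene families and 4 groups, leaving out relatives with a mean under 0.1 FPKM in every group. PDK4 was a visible share in THP-1 with honokiol only (33.1%), while CPT1A was the bulk of the CPT1 genes in each group.

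Of the receptors of these targets, PPARD was the most abundant and PPARA the least. PPARD was at a mean of 23.1 and 23.4 FPKM in THP-1 and 45.1 and 43.3 in U-937, DMSO before honokiol, with overlapping libraries in both lines. PPARG was at 6.67, 7.18 and 7.94 FPKM with DMSO and 10.4, 14.2 and 11.4 with honokiol in THP-1, without overlap, and its log2 fold change of 0.67 ± 0.15 had an edgeR adjusted p of 0.174. In U-937 PPARG was at 2.64, 2.51 and 2.07 with DMSO and 2.87, 4.13 and 5.63 with honokiol, again without overlap, with a log2 fold change of 0.71 ± 0.27 (edgeR adjusted p = 0.246). With DMSO PPARG was lower in U-937 by −1.64 ± 0.20 (edgeR adjusted p = 0.000242). PPARA, the receptor of liver and muscle, was at means of 1.23 and 2.32 FPKM in THP-1 and 0.75 and 0.773 in U-937, with overlap in each line. RXRA, a partner of the PPARs, had log2 fold changes of −0.45 ± 0.28 in THP-1, where the libraries overlapped, and −0.39 ± 0.14 in U-937, where honokiol libraries (9.90, 11.5 and 11.6 FPKM) were all below those with DMSO (12.8, 15.6 and 12.3). The coactivator PPARGC1B was also lower in every U-937 honokiol library (−0.47 ± 0.15) and overlapped in THP-1 (0.42 ± 0.20). The gap in U-937 was narrow, with 2.83 FPKM in the highest honokiol library and 2.88 in the lowest DMSO library. The share of all genes lower in every honokiol library was not computed for either line. RXRB, another retinoid X receptor, was not lower with honokiol. Its means were 16.7 and 21.2 FPKM in THP-1 and 12.2 and 13.3 in U-937, DMSO before honokiol, with overlap in each line.

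Beyond the members, 140 genes of the pathway were listed in 10 groups, of which 131 were in the table. Like the members, they were chosen with earlier results of these data known. Their counts, medians and p-values are therefore given as a description, which also holds for PDK1 and PPARG above. In THP-1 107 were tested and 0 were DEGs by edgeR, 3 were higher (beside 1.73% of all genes) and 1 lower (beside 1.07%) by the unadjusted criterion, and their median log2 fold change was 0.13 beside 0.00 over all genes. In U-937 99 were tested, 0 were DEGs, 6 were higher (beside 1.76%) and 0 lower (beside 0.772%) unadjusted, and the median was 0.22 beside 0.02. DESeq2 called 3 higher and 1 lower in THP-1 and 6 higher and 0 lower in U-937 (1.71% and 1.62% of all genes in either direction), and limma-trend called 0 in both. Without U-937 honokiol replicate 3, 5 were higher unadjusted and the median was 0.24.

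The genes of mitochondrial β-oxidation other than ACADVL and HADHA had a median log2 fold change of 0.23 (THP-1) and 0.35 (U-937), and 4 of 16 and 10 of 16 were above every DMSO library in all honokiol libraries, as were 13.0% and 16.7% of all genes. ACAA2, the thiolase that closes the cycle, had the highest value in both lines, 0.81 ± 0.20 (adjusted p = 0.192 in edgeR) and 0.99 ± 0.16 (adjusted p = 0.0643 in edgeR). In the carnitine shuttle, SLC22A5, which imports carnitine, had the highest values, 1.18 ± 0.26 in THP-1 and 0.61 ± 0.18 in U-937. Its level was low, at means of 0.553 and 1.3 FPKM in THP-1 and 0.71 and 1.14 in U-937, DMSO before honokiol. CPT2, the partner of CPT1A on the inner membrane, had log2 fold changes of −0.16 ± 0.21 and 0.29 ± 0.15. The peroxisomal genes had medians of 0.28 (THP-1) and 0.27 (U-937), with 7 and 5 of 13 separated upwards (beside the same 13.0% and 16.7%), led by ECH1 (0.46 ± 0.16) in THP-1 and HSD17B4 (0.89 ± 0.18) in U-937.

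Among genes of uptake and activation the medians were 0.24 (THP-1) and −0.12 (U-937). ACSL1, which activates fatty acids with coenzyme A, had the highest value in THP-1 (0.61 ± 0.14), and VLDLR the highest in U-937 (1.09 ± 0.20, adjusted p = 0.0776 in edgeR). Other PPAR targets had the highest median in THP-1 (0.56, of 13 tested) and 0.41 in U-937 (of 10 tested). PLIN2, the coat protein of lipid droplets, led them in both lines, at 24.4, 16.3 and 35.4 FPKM with DMSO and 100.9, 116.9 and 157.1 with honokiol in THP-1. In U-937 it was at 10.0, 29.1 and 6.83 with DMSO and 86.1, 139.4 and 330.3 with honokiol. All 6 honokiol libraries were above all DMSO libraries, and the log2 fold changes were 2.25 ± 0.30 and 3.52 ± 0.68 (adjusted p = 0.0607 and 0.0842 in edgeR). AQP3, a channel for water and glycerol, had the lowest value in THP-1, −1.10 ± 0.23 (adjusted p = 0.159 in edgeR), with 3.14, 3.97 and 3.25 FPKM with DMSO and 2.01, 1.32 and 1.67 with honokiol, without overlap.

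ACACB, the mitochondrial acetyl-CoA carboxylase whose product malonyl-CoA inhibits CPT1A, had a log2 difference of 0.48 ± 0.16 for THP-1 against 1.40 ± 0.19 for U-937 (adjusted p = 0.289 and 0.0598 in edgeR), in a group with medians of 0.11 and 0.09. The pyruvate dehydrogenase genes other than PDK4 had medians of −0.08 and 0.06 and 0 unadjusted calls by edgeR in either line, with MPC2 highest in THP-1 and PDK3 in U-937. The receptors and coactivators had medians of 0.12 and 0.10, the ketone body genes −0.06 and 0.22, and the relatives of ANGPTL4 and CREB3L3 −0.03 and 0.43, the last from 4 genes.

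**Figure D4:**
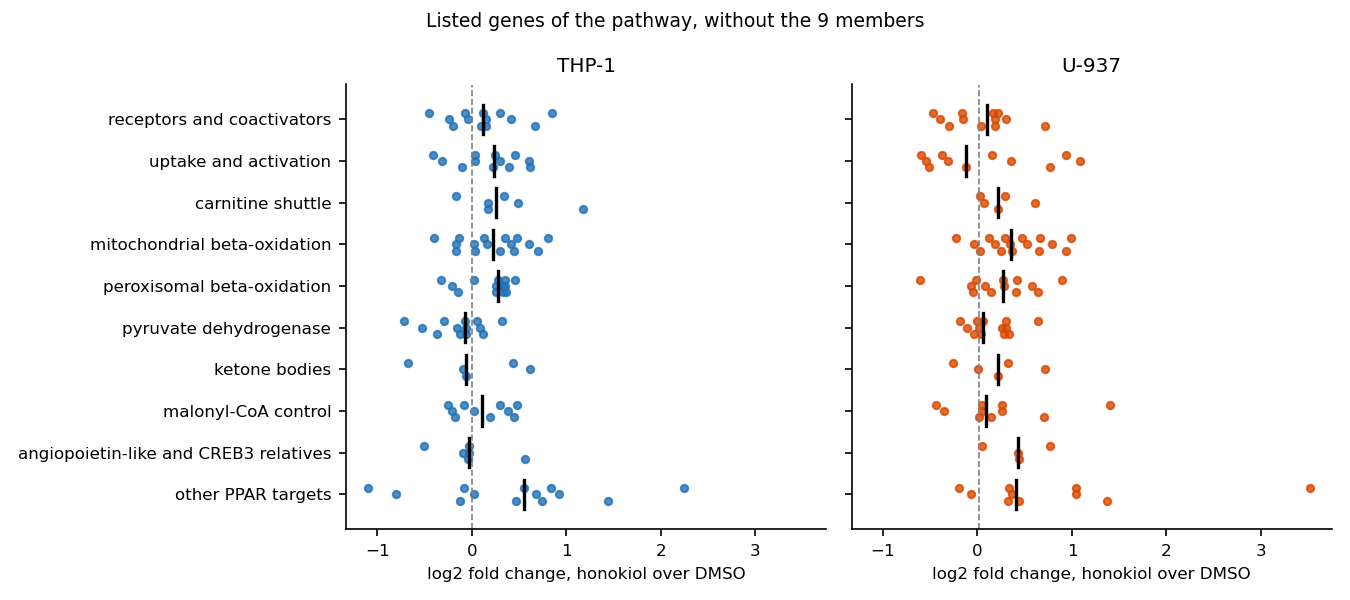
Log2 fold change of honokiol over DMSO (horizontal axes, edgeR estimates) of each tested gene of 10 pathway lists in THP-1 (left, blue) and U-937 (right, orange), without the 9 members. Black bars are the medians of the lists and the dashed line is the median of all tested genes (0.00 and 0.02), and PLIN2 is the point farthest right in both panels at 2.25 and 3.52.

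Under DMSO 35 of the 106 listed genes tested differed between the lines, 15 higher and 20 lower in U-937, where 32.4% of all genes were called. Of the 12 uptake and activation genes 5 were higher, among them SLC27A4 (2.02 ± 0.20) and FABP5 (1.92 ± 0.23), and 3 were lower, among them FABP3 (−3.68 ± 0.47) and LPL, the lipase that ANGPTL4 inhibits, at a mean of 0.01 FPKM against 4.2 in THP-1. Of the 16 mitochondrial β-oxidation genes 1 was higher (ECI2, 1.31 ± 0.21) and 1 lower (ACAD9, −1.09 ± 0.16). For the genes named here the edgeR adjusted p lay between 7.19e-05 and 0.0012.

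The genes whose pattern was most like that of a member were sought over the 12 libraries, by Pearson's r of log2(FPKM + 0.5) after the mean of each line was subtracted, among 13664 genes. For SLC25A20 they were BRI3 (r = 0.966), AP1S2 (0.965) and PPARG (0.953). For CREB3L3 they were ASAH1 (0.962), PLIN2 (0.954) and SIK2 (0.947), for CPT1A ABCA1 (0.969), MTFR1 (0.934) and BCAR3 (0.92), and for FABP4 IFNGR1 (0.978), ITGB7 (0.967) and TMEM170B (0.966). PDK4 was closest to SLITRK4 (0.989), OXR1 (0.968) and FAM20C (0.967), ACADVL to BTG1 (0.969), FAM27E3 (0.969) and HDAC6 (0.957), and HADHA to SMAD4 (0.961), ATXN3 (0.954) and CPVL (0.95). CD36 was closest to OSBPL11 (0.954), FCMR (0.922) and GOLGA7B (0.917), and ANGPTL4 to NGFR (0.933), DUXAP9 (0.927) and LINC00477 (0.924). Among the members themselves the highest r was between FABP4 and SLC25A20 (0.913) and the lowest between CD36 and ANGPTL4 (0.109). These are descriptions, since all points share the treatment and the libraries.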

How the data were processed

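The authors deposited 1 table of 36866 genes that gives 2 values for every one of the 12 libraries, FPKM and an estimated count. Per the labels, HISAT2 2.0, StringTie 1.3.0 and Bowtie 0.12.2 were named in the submitters' processing notes. They also name the mouse build mm8, but 97.1% of the gene IDs were found in the human GENCODE 29 annotation (GRCh38), 99.97% of these at overlapping coordinates. The deposited estimated counts are whole numbers, not normalized, with 17264 values of 4 beside 6764 of 3 and 4016 of 5, so that a fragment is mostly worth about 4 counts. The FPKM deposited by the authors is scaled to transcript length and library size.

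Estimated counts were fitted by edgeR 4.0.16 (R 4.3.3; TMM, quasi-likelihood test, two-sided, no block) within each pair of groups and in 1 fit for the difference of responses. Genes with at least 0.5 FPKM in at least 3 libraries of the fit were tested, with Benjamini-Hochberg adjustment over all of them. The standard error is the log2 fold change divided by the square root of F. Means ± SD are over FPKM. The fits were tested on simulated counts. DESeq2 1.42.0 and limma 3.58.1 (limma-trend) were alternatives, beside other filters and scalings, a replicate block and each library left out. The members and gene lists were chosen with earlier results of these data known. Named by rule were the members, listed genes called in a comparison, the listed genes highest and lowest with honokiol, and relatives of members, though not every gene the rule covers is printed. PPARD, RXRB and the genes that overlap members were added after their values were seen. Promoter windows came from RefSeq (GRCh38.p14), and for 12 of 14 member windows the first bases after the start were found in a GENCODE transcript of the gene.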

Additional observations from a re-analysis of the deposited data

How the results depend on the processing

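In THP-1 6 genes were DEGs, but 250 with DESeq2, 0 with limma-trend at either pseudocount, 0 without the filter, 1 at an FPKM of at least 1, 24 in 1 fit of 12 libraries, and 0 to 43 when a library was left out. In U-937 13 were DEGs, 223 with DESeq2, 78 in 1 fit of 12 libraries and 0 to 6 with a library left out. For the difference of responses 18 were called, 181 with DESeq2, 2 and 1 with limma-trend at pseudocounts of 0.5 and 0.1, 0 with counts divided by 4 and 1 to 22 with a library left out. The causes were not tested. The replicate number as a block left 0 genes called in each of these 3 comparisons and 4662 between the lines under DMSO (4730 without it). For same-numbered DMSO and honokiol libraries, the deviations from the mean of each group were correlated across 12304 genes. The r was −0.134, −0.221 and 0.146 in THP-1 and −0.148, −0.103 and −0.183 in U-937. No values for libraries of different numbers were set beside these, so whether the numbers pair the libraries cannot be told.

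In U-937 0 to 4 members (3 with all libraries) passed the unadjusted criterion when a library was left out. Without the filter 3 members were called between the lines, not 1, with 6704 of all genes called and not 4730. Under DMSO the difference of ACADVL between the lines changed sign: it was 0.00 (−0.00285), but 0.0800 and 0.0828 with limma-trend at pseudocounts of 0.5 and 0.1, 0.0291 without the filter, 0.00673 without mitochondrially encoded genes, 0.0297 with the replicate block and −0.24 to 0.14 with a library left out. That of FABP4 was −2.18 with the replicate block and ran from −0.70 to 0.55 with a library left out. FABP4 was tested in only 3 of the fits with a library left out. The honokiol value of HADHA in THP-1 ran from −0.00508 to 0.126 when a library was left out. All other differences of members kept their direction in every fit that gave a value, but not their size: limma-trend at a pseudocount of 0.5 gave 1.44 for ANGPTL4 (2.22 in edgeR), 2.54 for PDK4 (4.14) and 1.41 for CREB3L3 (1.94) in THP-1, and 2.95 for CREB3L3 in U-937 (4.15). Low estimated counts limit FABP4, PDK4, ANGPTL4 and CREB3L3 under DMSO.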
